A study of Mus musculus with 6 samples.

Results

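Nupr1 and 9 further genes of the integrated stress response were followed in 6 mouse tumours, from a bulk RNA count table of 15295 genes. The genes are Nupr1, Atf4, Ddit3, Trib3, Asns, Chac1, Sesn2, Ppp1r15a, Atf5 and Ddit4, matched by Entrez number. All 10 were in the table and passed the low-count filter that left 14498 genes. Nupr1 was selected on its own measured counts, because they separated the groups compared here, so its values are a description with no test. The other 9 were listed as genes of the same response.

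The tumours were grown from NA13, a mouse bladder cancer line that the series names for high DDR2 expression, with the strain given as C57BL/6. In 3 of them the cells carried an shRNA against Ddr2 (shDdr2), and in the other 3 a scrambled shRNA. All 6 received IgG, so none is an untreated tumour. Ddr2 encodes discoidin domain receptor 2, a receptor kinase for collagen. No age, time or shRNA sequence is given in the sources used here, nor whether libraries of a group came from separate animals. P-values therefore describe the spread between these libraries, part of which may be technical.

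The integrated stress response is a shared answer to unfolded protein in the endoplasmic reticulum, amino acid shortage, viral RNA and lack of heme. Each stress activates its own kinase, and all of these phosphorylate the initiation factor eIF2. General protein synthesis then slows, while messages with upstream reading frames, such as Atf4 and Atf5, are translated more. ATF4 is controlled to a large part at translation, so its mRNA level is not a measure of its protein. ATF4 then induces genes of amino acid supply, redox balance, feedback and cell death. Nupr1 encodes a small, intrinsically disordered nuclear protein that many stresses induce, first found in pancreatitis, and ATF4 is among its known inducers.

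The promoters are shown because the members differ in a sequence to which ATF4 binds with C/EBP partners. The core searched was TGATGNAA, on both strands, in RefSeq windows of 300 bases that run from 250 before to 50 after the annotated start (GRCm38.p6). It stood in the windows of 4 of the 10 members (Nupr1, Trib3, Asns and Chac1), against 1219 of 27025 genes with a window (4.51%). The endoplasmic reticulum stress element, CCAAT and CCACG with 9 bases between them, was in 0 of the 10 and in 37 of all genes (0.137%), so the searches share no match in the members. A match is no proof of a site, and the other 6 members may hold such letters outside these windows. The stretches with the core are given 5′ to 3′ on the gene's strand, with the core in capitals. TTGCATCA and TTACATCA are the core read on the opposite strand.

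Nupr1: gccagaTTGCATCAgacagg
Chac1: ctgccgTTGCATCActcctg
Asns: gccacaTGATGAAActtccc
Trib3: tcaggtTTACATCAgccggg

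Counted from the RefSeq start, the core began 110 bases before it in Nupr1, 193 before in Chac1, 23 before in Asns and 14 after it in Trib3. In GENCODE, Nupr1 spans 126623249 to 126630861 on the minus strand. The RefSeq start used here, the core and the 250 bases upstream lie inside that span, so the annotations differ on the start. The 250 bases upstream of Nupr1 (chr7:126625471-126625720, minus strand) and of Ppp1r15a (chr7:45526269-45526518, minus strand) are given whole. They are members with and without the core whose levels were both lower in every tumour labelled shDdr2 than in any with scrambled shRNA.

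Nupr1 upstream: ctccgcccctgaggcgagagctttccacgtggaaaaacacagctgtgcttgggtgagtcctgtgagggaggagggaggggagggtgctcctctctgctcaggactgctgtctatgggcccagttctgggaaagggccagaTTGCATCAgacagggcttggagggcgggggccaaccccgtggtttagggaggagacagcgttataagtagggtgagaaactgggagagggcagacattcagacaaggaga
Ppp1r15a upstream: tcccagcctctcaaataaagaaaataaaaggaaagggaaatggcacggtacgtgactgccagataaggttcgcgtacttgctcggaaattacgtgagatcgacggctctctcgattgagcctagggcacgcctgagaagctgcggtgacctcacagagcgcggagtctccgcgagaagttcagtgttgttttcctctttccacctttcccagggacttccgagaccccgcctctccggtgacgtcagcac

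Library totals ran from 15560571 to 19522985 counts, and member counts from 77 to 4515. Levels are in CPM, each count as a share of its TMM-scaled library total, put on one scale for all libraries. Ddr2, the targeted gene, was at 17.5 ± 12.0 CPM in tumours labelled shDdr2 and 14.5 ± 7.28 CPM with scrambled shRNA (SD, n = 3 each). Its library values overlapped, from 4.84 to 28.6 CPM with shDdr2 and from 6.42 to 20.5 CPM with scrambled shRNA. The mean was thus not lower, but the interval of the log2 fold change (0.27) ran from -1.27 to 1.81. An interval this wide cannot tell a reduction of Ddr2 from an increase. Directions below are between libraries as labelled. The library labelled shDdr2 1 stood apart on the first principal component (-85.2, the other 5 between -16.3 and 45.7), and scrambled 1 on the second (-55.7, the others between -6.75 and 34.3). Epithelial markers (7 of 8 tested, all but Upk3a) summed to 5987 to 6801 CPM with shDdr2 and 6100 to 6862 CPM with scrambled shRNA. Although these sums overlapped, 6 of the 7 genes were lower with shDdr2, 3 of them without overlap. Over all genes tested, 42.9% were lower and 2.11% were lower without overlap. The sums of 2 of the 10 marker lists did not overlap between the groups. Skeletal muscle markers (10 of 10 tested) summed to 413 to 3025 CPM with shDdr2 and 10.9 to 119 CPM with scrambled shRNA, and 10 of 10 were higher. Neutrophil markers (5 of 6 tested, all but Ly6g) summed to 29.5 to 64.9 CPM with shDdr2 and 67.4 to 90.5 CPM with scrambled shRNA, and 4 of the 5 were lower, 2 of them without overlap. No tested marker was at 0, since the lowest count in the table is 1.

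Nupr1 (Entrez 56312, chromosome 7, 126623249 to 126630861, minus strand, GRCm38, protein-coding) was the member with the widest difference. It stood at 69.6, 53.1 and 86.0 CPM in the tumours labelled shDdr2 1 to 3, and at 172, 124 and 137 CPM in scrambled 1 to 3. The groups did not overlap, and the highest shDdr2 value stayed below the lowest scrambled one. The means were 69.6 ± 16.4 CPM with shDdr2 and 144 ± 25.1 CPM with scrambled shRNA (SD, n = 3 each), a log2 fold change of -1.05 (SE 0.25), or 0.482 of the scrambled mean. Without any 1 library the log2 fold change lay between -1.24 and -0.89. It was -0.91 without both libraries numbered 1, an alternative chosen after seeing the data. The neutrophil sum was lower with shDdr2 as Nupr1 was, and the muscle sum was higher. Of the epithelial markers 6 of 7 were lower, but their sums overlapped. Log2 of that sum plus 1 had a Pearson r of -0.219 with log2 CPM of Nupr1. Erythrocyte markers (4 of 5 tested, all but Hbb-bt) were lower in 4 of 4, 1 of them without overlap. Their sums overlapped too, with r = 0.706, and the highest was 596 CPM in scrambled 1. The part of these markers in the difference of Nupr1 was not tested. In whole tumours, fewer cells of a type and less RNA per cell cannot be told apart.

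**Figure D1:**
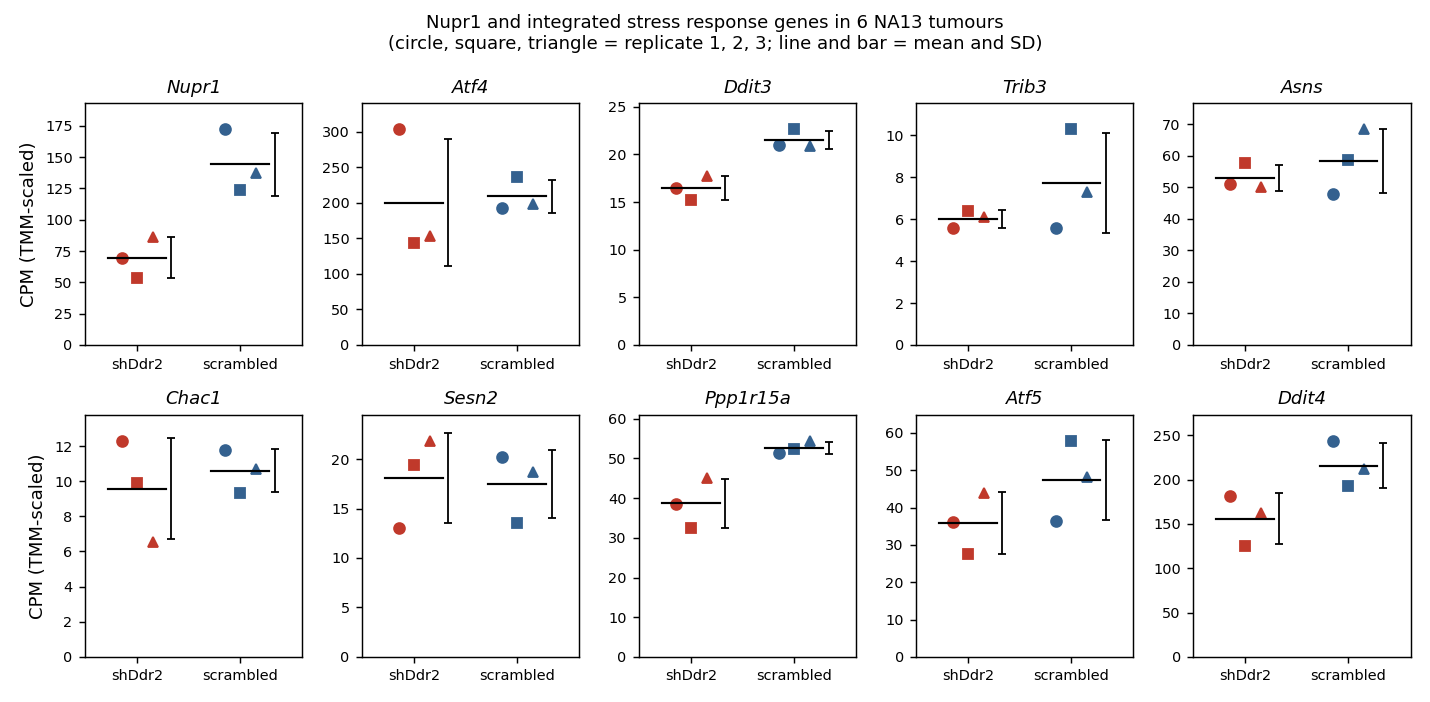
CPM of the 10 genes in each library, shDdr2 left and scrambled right, with the group mean (line) and SD (bar). Nupr1, Ddit3, Ppp1r15a and Ddit4 lie lower in all 3 shDdr2 libraries than in any scrambled one, while Atf4 is spread by 1 shDdr2 library at 303 CPM.

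Of the effectors of cell death and feedback, Ddit3 and Ppp1r15a had lower values in all 3 tumours labelled shDdr2. Ddit3 (Entrez 13198, chromosome 10, 127290774 to 127296288, plus strand) encodes CHOP, a transcription factor that promotes cell death under lasting stress. It stood at 16.5, 15.3 and 17.7 CPM in shDdr2 1 to 3, and at 21.0, 22.6 and 20.9 CPM in scrambled 1 to 3. The gap between the groups was wider than the spread within either, with means of 16.5 ± 1.25 and 21.5 ± 0.974 CPM for shDdr2 and scrambled shRNA (SD, n = 3 each). The log2 fold change was -0.38 (95% interval -0.86 to 0.09), with an adjusted edgeR p of 1.00.

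Ppp1r15a (Entrez 17872, chromosome 7, 45522916 to 45526268, minus strand) encodes GADD34, the phosphatase subunit that reverses eIF2 phosphorylation. It was at 38.4, 32.6 and 45.0 CPM in shDdr2 1 to 3, and at 51.3, 52.5 and 54.4 CPM in scrambled 1 to 3. The coefficient of variation was 2.95% among the scrambled libraries, against 16.1% among those labelled shDdr2. The log2 fold change was -0.45 (95% interval -0.91 to 0.02, edgeR adjusted p = 1.00).

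Ddit4 (Entrez 74747, chromosome 10, 59949669 to 59951834, minus strand) encodes REDD1, an inhibitor of the growth kinase mTORC1 that hypoxia and glucocorticoids also induce. It was at 181, 125 and 162 CPM in shDdr2 1 to 3, and at 244, 193 and 212 CPM in scrambled 1 to 3, again with no overlap. The log2 fold change was -0.47 (95% interval -0.98 to 0.04, edgeR adjusted p = 1.00). Sesn2 (Entrez 230784, chromosome 4, 132492032 to 132510501, minus strand), whose product sestrin 2 also restrains mTORC1, senses leucine and is a p53 target, did not follow it. It was at 13.1, 19.4 and 21.8 CPM in shDdr2 1 to 3, and at 20.2, 13.6 and 18.7 CPM in scrambled 1 to 3. Each group had 1 library well under its other 2, and the log2 fold change was 0.05 (95% interval -0.62 to 0.72).

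The transcription factors upstream overlapped between the groups. Atf4 (Entrez 11911, chromosome 15, 80255184 to 80257541, plus strand), the central factor of the response, was at 303, 144 and 153 CPM in shDdr2 1 to 3, and at 193, 236 and 198 CPM in scrambled 1 to 3. The library labelled shDdr2 1 held the highest Atf4 of all 6, and the other 2 of that group the lowest. With all libraries the log2 fold change was -0.06 (95% interval -0.81 to 0.69), and without shDdr2 1 it was -0.49 (edgeR adjusted p = 0.702). Atf5 (Entrez 107503, chromosome 7, 44812256 to 44816658, minus strand), a related factor under the same translational control, was at 36.0, 27.6 and 44.0 CPM in shDdr2 1 to 3, and at 36.4, 57.8 and 48.1 CPM in scrambled 1 to 3. The groups overlapped because scrambled 1 lay below shDdr2 3, and the log2 fold change was -0.40 (95% interval -1.02 to 0.22).

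The remaining targets of ATF4 overlapped between the groups. Trib3 (Entrez 228775, chromosome 2, 152337422 to 152344032, minus strand), a pseudokinase that restrains ATF4 and CHOP, was at 5.56, 6.38 and 6.08 CPM in shDdr2 1 to 3, and at 5.55, 10.3 and 7.29 CPM in scrambled 1 to 3. Its log2 fold change of -0.36 (95% interval -1.12 to 0.40) was -0.10 without scrambled 2. Asns (Entrez 27053, chromosome 6, 7675169 to 7693254, minus strand), the asparagine synthetase that amino acid shortage induces, was at 50.9, 57.5 and 49.9 CPM in shDdr2 1 to 3, and at 48.0, 58.5 and 68.3 CPM in scrambled 1 to 3. The log2 fold change was -0.14 (95% interval -0.62 to 0.34), and scrambled 1 was the lowest of the 6 libraries. Chac1 (Entrez 69065, chromosome 2, 119351229 to 119354381, plus strand), which degrades glutathione, was at 12.3, 9.89 and 6.54 CPM in shDdr2 1 to 3, and at 11.8, 9.32 and 10.7 CPM in scrambled 1 to 3. The shDdr2 libraries held both its highest and its lowest value, and the log2 fold change was -0.15 (95% interval -0.87 to 0.58). Intervals as wide as these do not show that Asns, Chac1, Trib3 or Sesn2 were equal in the groups.

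**Figure D2:**
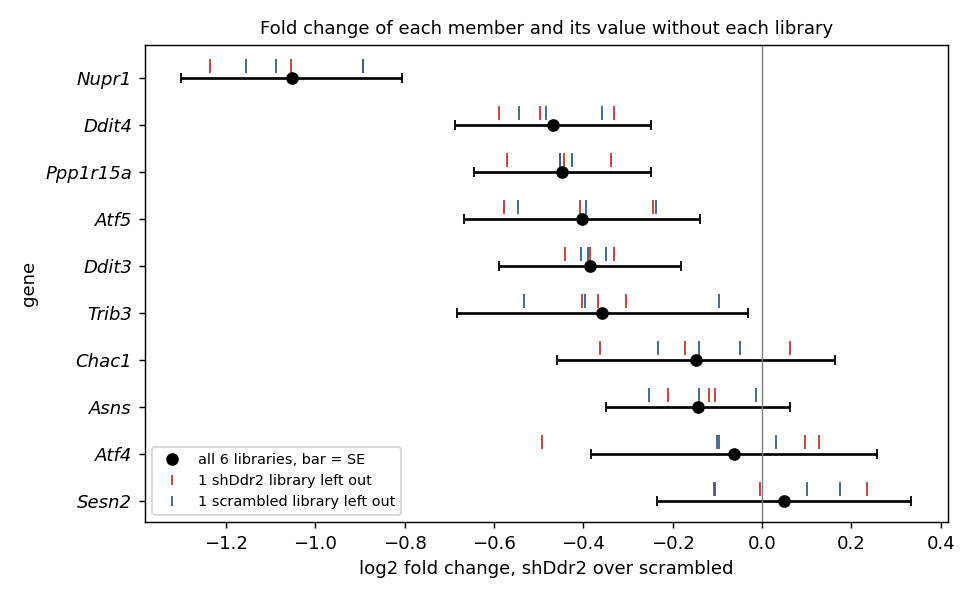
Log2 fold change of each gene, shDdr2 over scrambled, with its SE (black), and ticks for the value without each library in turn. Nupr1 lies apart at -1.05, a middle set from Ddit4 (-0.47) to Trib3 (-0.36) follows, and Chac1, Atf4 and Sesn2 have ticks on both sides of 0.

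Nupr1, chosen for this contrast, is left out of the counts of p-values. In the edgeR fit over all genes, 0 of the other 9 passed at an adjusted p under 0.05, and so did 0 of 14498 genes (0%). At an unadjusted p under 0.05 stood 0 of the 9, against 209 of all genes (1.44%). DESeq2 called 0 of the 9 and 40 of 15273 genes (0.262%). The groups did not overlap in 4 members, all lower with shDdr2. Of these 4, Nupr1 is there by choice. Over all genes, 306 of 14498 (2.11%) were lower without overlap, a share that leaves out genes higher without overlap. The fold change was below 0 in 9 members, against 6216 of all genes (42.9%). Over the alternatives that share of all genes ran from 41.3% under another scaling (RLE) to 50.8% without shDdr2 1. The median log2 fold change was -0.37 over the members and 0.04 over all genes. Without scrambled 2 the medians were -0.24 and 0.04, and without shDdr2 1 they were -0.40 and -0.01. The genes were assembled with earlier results of these data known, and neither the counts nor the medians test the group.

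By replicate number, which the labels give without saying what it marks, 5 members were lower with shDdr2 in all 3 pairs (Nupr1, Ddit3, Ppp1r15a, Atf5 and Ddit4). For all of these but Atf5, that follows from the lack of overlap between the groups. Atf5 was at -0.01 in pair 1. The log2 differences of Nupr1 were -1.31, -1.22 and -0.67 in pairs 1 to 3. The pairs differed most for Atf4, at 0.65, -0.71 and -0.37, and for Sesn2, at -0.62, 0.51 and 0.22.

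The library labelled shDdr2 2 held the lowest level of Nupr1, Atf4, Ddit3, Ppp1r15a, Atf5 and Ddit4. Its member values deviated from their gene means by a median of -0.38 on the log2 scale. The medians of shDdr2 1 and 3 were -0.18 and -0.14, and those of scrambled 1 to 3 were 0.17, 0.24 and 0.18. That library also had the highest skeletal muscle sum, 3025 CPM, and the lowest neutrophil sum, 29.5 CPM, and the part of either in these deviations was not tested. In scrambled 3, 10 of 10 members lay above their own mean.

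**Figure D3:**
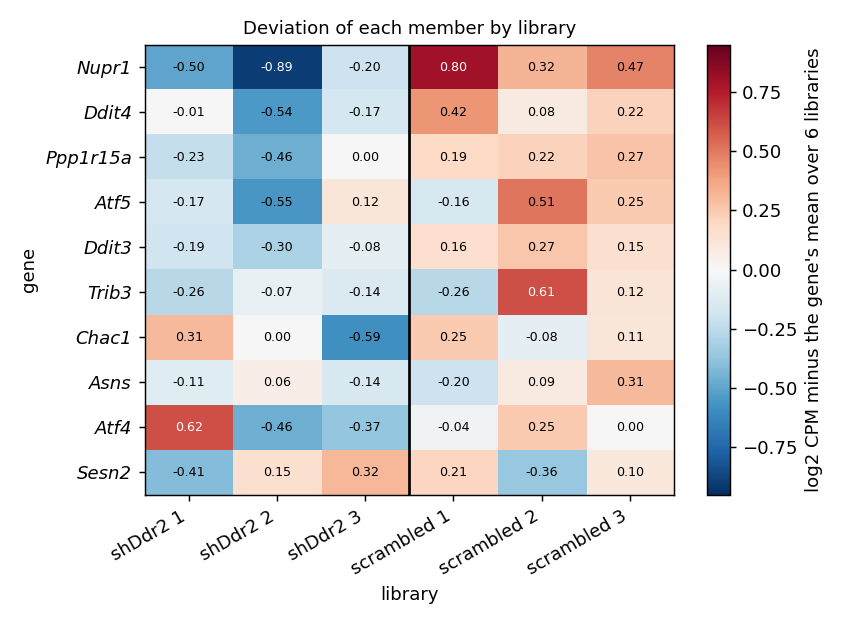
Log2 CPM of each gene minus its mean over the 6 libraries, shDdr2 libraries left of the black line and scrambled right. The rows of Nupr1, Ddit4, Ppp1r15a and Ddit3 change colour at the line (Ppp1r15a in shDdr2 3 is at 0.00), whereas Atf4 is high in shDdr2 1 (0.62) and Sesn2 is low there (-0.41).

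Across the 6 libraries, log2 CPM of Nupr1 correlated with that of Ppp1r15a (Pearson r = 0.940), Ddit4 (0.924) and Ddit3 (0.922). It correlated less with Atf5 (0.595), Trib3 (0.247), Atf4 (0.178), Chac1 (0.178), Sesn2 (0.109) and Asns (0.0758). As log2 of the sum plus 1, the skeletal muscle markers gave r = -0.975 and the neutrophil markers 0.943, both farther from 0 than the r of any other member. These r are descriptions: the libraries share 2 groups, and Nupr1 was chosen because it separates them. Atf4 and Sesn2 ran opposite to each other (r = -0.876). The median r over the 45 pairs of members was 0.229, and 33 pairs were above 0.

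Per kb of transcript, Nupr1 stood below Atf4 and Ddit4 with shDdr2 and above both with scrambled shRNA. Levels are mean CPM per kb of the longest RefSeq-matched transcript. With shDdr2 the order was Atf4 (116), Ddit4 (89.0), Nupr1 (83.9), Asns (26.4), Atf5 (20.7), Ddit3 (18.5), Ppp1r15a (16.6), Chac1 (5.85), Sesn2 (5.21) and Trib3 (2.97). With scrambled shRNA it was Nupr1 (174), Ddit4 (123), Atf4 (121), Asns (29.1), Atf5 (27.3), Ddit3 (24.2), Ppp1r15a (22.6), Chac1 (6.47), Sesn2 (5.03) and Trib3 (3.81). Atf4, Ddit4 and Nupr1 overlapped in their ranges with shDdr2, whereas Nupr1 stood clear of Ddit4 with scrambled shRNA. Nupr1 was the top member in 1 of 3 shDdr2 libraries and in 3 of 3 scrambled ones. Asns, Atf5 and Ddit3 overlapped as neighbours in both groups, and so did Chac1 and Sesn2.

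The counts of 3 members are uncertain, because their exons overlap genes on the opposite strand in GENCODE M21 and the strand setting is not given in the sources used here. Ddit3 overlaps Mars1, which was at 90.1 ± 10.5 CPM with shDdr2 and 89.2 ± 3.76 CPM with scrambled shRNA (SD, n = 3 each). It also overlaps Gm4189 on the opposite strand. On its own strand it overlaps another entry named Ddit3 (127290829 to 127293753), which a strand setting would not separate. Atf5 overlaps Nup62, at 75.0 ± 0.812 CPM with shDdr2 and 74.1 ± 15.9 CPM with scrambled shRNA, and also Il4i1. Ppp1r15a overlaps Tulp2. Gm4189, Il4i1 and Tulp2 are not analysed here.

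Other genes of the response, and some beside it, were described in 8 lists by role. Those beside it are the relatives of the members (5 tested) and other branches of endoplasmic reticulum stress (13 tested). Of the 87 genes tested in the 8 lists, 0 passed at an adjusted edgeR p under 0.05, and 1 stood at an unadjusted p under 0.05. Of the 87, 50 (57.5%) had lower values with shDdr2, against 42.9% of all genes, and 37 higher ones, with a median log2 fold change of -0.02, against 0.04 over all genes. In 4 of the 87 the groups did not overlap, each lower with shDdr2 (Slc7a3, Gdf15, Ndrg1 and Ppp1r15b). Of all genes, 2.11% were lower without overlap.

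The sensing kinases and eIF2 machinery (16 genes, 5 lower) had a median of 0.06. Eif2s1, the phosphorylated subunit of eIF2, was at 226 ± 124 CPM with shDdr2 and 180 ± 53.7 CPM with scrambled shRNA, and the library labelled shDdr2 1 held its highest level, 369 CPM. Ppp1r15b, the constitutive counterpart of Ppp1r15a in dephosphorylating eIF2, was at 134 ± 5.27 CPM with shDdr2 and 147 ± 10.2 CPM with scrambled shRNA. The bZIP partners of ATF4 (8 genes, 5 lower) had a median of -0.02. Cebpd was at 18.7 ± 2.68 and 21.5 ± 8.84 CPM and Nfe2l2, the NRF2 gene, at 204 ± 17.2 and 188 ± 7.28 CPM with shDdr2 and scrambled shRNA.

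Genes of amino acid synthesis (11 tested, 5 lower) had a median of 0.04 on the log2 scale. Cth, which makes cysteine, was at 20.7 ± 13.5 CPM with shDdr2 and 14.9 ± 2.57 CPM with scrambled shRNA, and the alanine transaminase Gpt2 at 42.7 ± 2.60 and 48.5 ± 4.83 CPM. Amino acid transporters (10 genes, 7 lower) had a median of -0.16. Slc7a3, a cationic amino acid transporter and the gene at an unadjusted edgeR p under 0.05 (edgeR adjusted p = 1.00), was near the bottom of detection, at 0.345 ± 0.199 CPM with shDdr2 and 0.822 ± 0.116 CPM with scrambled shRNA. The glutamine transporter Slc1a5 was at 43.2 ± 2.39 and 51.0 ± 9.71 CPM. Aminoacyl tRNA synthetases (12 genes, 6 lower) had a median of -0.03, with Cars at 113 ± 16.8 and 130 ± 19.4 CPM and Nars at 177 ± 13.5 and 204 ± 21.8 CPM (shDdr2 and scrambled shRNA, SD, n = 3 each, as for all pairs of values of these lists).

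Secreted and other targets (12 tested, 9 lower) had the lowest median of the 8 lists, -0.24. Gdf15, a stress hormone of the TGF-beta family, was at 1.88, 1.90 and 1.72 CPM in shDdr2 1 to 3, and at 2.103, 4.72 and 2.70 CPM in scrambled 1 to 3, a log2 fold change of -0.79 (SE 0.41). Ero1a, an oxidase of the endoplasmic reticulum that hypoxia also induces, was at 292 ± 92.7 CPM with shDdr2 and 461 ± 184 CPM with scrambled shRNA. Relatives of the members (5 tested, 3 lower) had a median of -0.04, with Trib2 at 57.2 ± 20.5 and 63.9 ± 8.65 CPM and Sesn3 at 30.1 ± 6.08 and 26.7 ± 4.99 CPM. The endoplasmic reticulum stress branches beside PERK (13 genes, 10 lower) had a median of -0.03. Xbp1, the spliced factor of the IRE1 branch, was at 201 ± 43.1 and 235 ± 45.1 CPM, and the chaperone partner Sdf2l1 at 30.9 ± 14.0 and 24.8 ± 3.42 CPM.

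**Figure D4:**
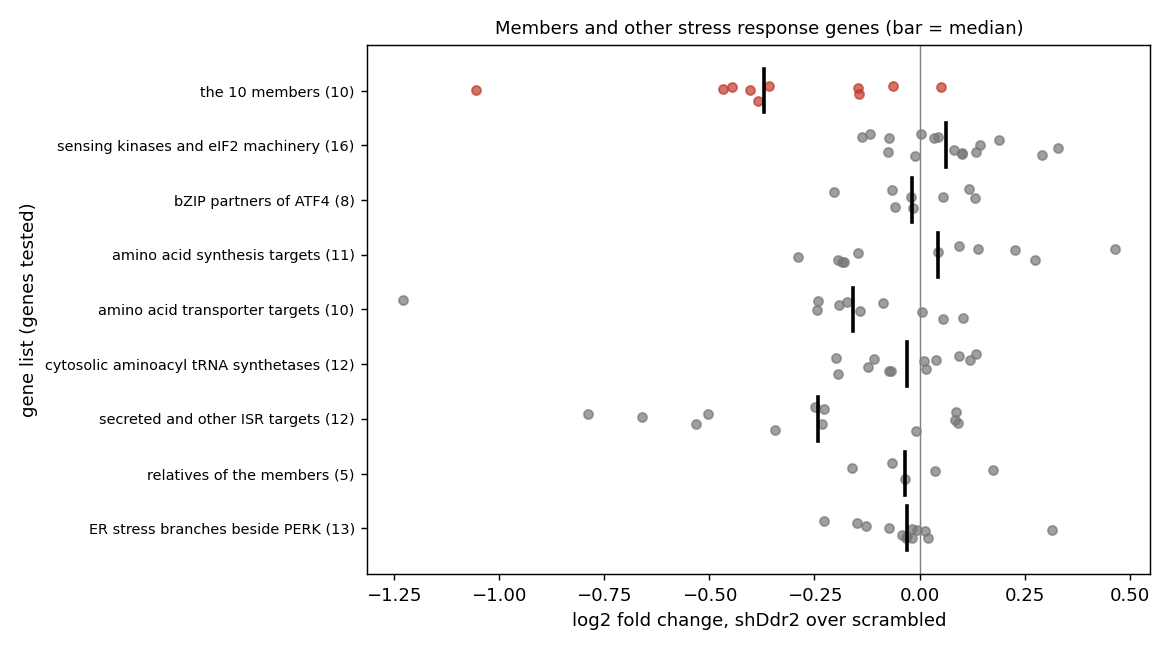
Log2 fold change, shDdr2 over scrambled, of the 10 members (red) and of 8 lists of other stress response genes (grey), 1 point a gene, with the median as a bar. The members' median is -0.37, and the medians of the lists lie between -0.24 and 0.06.

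The genes whose pattern over the 6 libraries was most like that of Nupr1 were Nfkbia (r = 0.997), Hbegf (0.993), Rnf128 (0.986), Pparg (0.983) and Hmga1 (0.982), among 10429 named genes with an average log2 CPM of at least 3. Nfkbia, the inhibitor of NF-kappa-B, was at 185, 159 and 209 CPM in shDdr2 1 to 3, and at 290, 257 and 260 CPM in scrambled 1 to 3. Hbegf, an EGF receptor ligand, was at 59.5, 46.2 and 66.5 CPM in shDdr2 1 to 3, and at 107, 84.5 and 100.3 CPM in scrambled 1 to 3. All 5 were lower without overlap with shDdr2, as Nupr1 was. They were picked for likeness to a gene that separates the groups, so this comes with the choice. Ppp1r15a ranked 20 in this order, Ddit4 32 and Ddit3 35, whereas Atf5 ranked 562 and Atf4 3014. As above, r follows from 6 points in 2 groups and carries no test.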

How the data were processed

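RNA of 6 whole tumours was sequenced as paired-end reads of 150 bp after poly-T selection, per the labels' protocols. Bowtie2 2.1.0, RSEM 1.2.31, limma and the build GRCm38.p5 are named, per the submitters' processing notes, with no step given. The authors deposited counts per Entrez gene, whole numbers that may be rounded estimates, with a lowest count of 1. They also deposited log2 values, which were checked as the log2 of the count over 1 factor per library, plus 1. Undoing this gave the deposited count, after rounding, for 91753 of 91770 values, and the 17 that differed are the largest counts.

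The counts were used as deposited: filterByExpr, TMM scaling and the robust quasi-likelihood test of edgeR 4.0.16 in R 4.3.3, with two-sided p-values adjusted by Benjamini-Hochberg over 14498 genes and a threshold of 0.05. Log2 CPM has a prior count of 2. For the median gene, the half-width of the 95% interval was 0.755 on the log2 scale. Alternatives used DESeq2 1.42.0, limma 3.58.1, other scalings and filters, a replicate block, and each library left out. The test was tried on simulated data.

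Symbols came from RefSeq by Entrez number (14876 matched), gene coordinates and transcript lengths from GENCODE M21 (GRCm38), promoters from RefSeq (GRCm38.p6). All 10 members matched.

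Members and lists were chosen with earlier results of these data known. Named are the members, Ddr2, in each list the 2 genes with the smallest p and any under 0.05 unadjusted, and the 5 genes most like Nupr1. Mars1, Nup62, and Ndrg1, whose groups did not overlap, were named after values were seen.

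Same-numbered libraries deviated together, with r of 0.299, 0.267 and 0.253 across genes for numbers 1 to 3, so they may be pairs. One differently numbered pair, shDdr2 2 with scrambled 3, gave 0.254. The main fit, with its intervals and p-values, is nonetheless unpaired, because the labels do not say what a number marks. A replicate block was run only as an alternative. Libraries within a group differed by more than counting noise.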

Additional observations from a re-analysis of the deposited data

How the results depend on the processing

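The 9 members other than Nupr1 had 0 calls in every alternative run, and the 10 members had 9 fold changes below 0 except without shDdr2 3, where 8 were. Nupr1 stayed between -1.08 and -1.04 under other scalings, filters and tools, and the replicate block gave -1.07. Over all genes edgeR and limma called 0 in each alternative and DESeq2 called 40; the cause was not tested. The direction turned for 3 members when 1 library was left out: Atf4 ranged from -0.49 to 0.13, Chac1 from -0.36 to 0.063 and Sesn2 from -0.11 to 0.24. Trib3, Asns and Atf5 kept their sign, with values nearest 0 of -0.10 without scrambled 2, -0.01 without scrambled 3 and -0.24 without scrambled 2. Of the 9 without Nupr1, 3 stood at an unadjusted edgeR p under 0.05 without shDdr2 1, against 1022 of 14696 genes. Without both libraries numbered 1 there were also 3, against 1033 of 14582. There was 1 with library totals alone (195 of 14498 genes) and 1 with the replicate block (262 of 14498). DESeq2 (307 of 15273) and the fit without shDdr2 3 (395 of 14632) also gave 1 each. At an adjusted edgeR p under 0.05, the replicate block changed no call of a member. With 3 libraries a group, a change of the size seen in Ddit3, Ppp1r15a or Ddit4 lies within the median interval of a gene.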
